A study of Mus musculus with 12 samples.

Results

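The genes described here are the nuclear genes for the subunits of the mitochondrial respiratory chain and ATP synthase in mouse CD4+ T cells. They were chosen by symbol: protein-coding genes whose symbols start with Nduf, Sdha, Sdhb, Sdhc, Sdhd, Uqcr, Cox4, Cox5, Cox6, Cox7, Cox8 or Atp5, without pseudogene copies named with -ps. The rule found 98 genes among 45321 genes with a matched transcript. Of these, 36 are subunits of complex I, 4 of complex II, 8 of complex III, 20 of complex IV and 18 of complex V, the ATP synthase. The same symbols also take in 12 assembly factors that are not part of the finished enzymes, 8 for complex I (Ndufaf genes) and 4 for complex II (Sdhaf genes), and these are described apart. Ndufa4 was placed with complex IV, where its protein is now assigned. The rule misses subunits with other symbols, such as Cyc1 and Usmg5, so counts and sums by complex cover only the subunits it found.

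The respiratory chain passes electrons from NADH (at complex I) and succinate (at complex II) through ubiquinone, complex III and cytochrome c to oxygen at complex IV, and complex V uses the resulting proton gradient to make ATP. Most subunits come from nuclear genes and a few from mitochondrial DNA, and assembly factors put the pieces together. Resting T cells draw much of their ATP from this chain, and activated T cells raise glycolysis and enlarge their mitochondria in the hours and days that follow.

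RNA sequencing covered total CD4+ T cells from spleens of C57BL/6 mice, obtained by depleting the other cells. The 4 groups, in 3 libraries each, were CsA_PI (cyclosporin A, CsA, then stimulation), ethanol_PI (ethanol vehicle, then stimulation), CsA_US (CsA, unstimulated) and ethanol_US (vehicle, unstimulated). CsA was given at 1 µM and both pretreatments lasted 1 h, and stimulation was PMA at 10 nM with ionomycin at 1 µM, over 2 h. Ionomycin lets calcium in and PMA switches on protein kinase C, a pair that acts downstream of the T cell receptor. CsA blocks calcineurin, the phosphatase that sends NFAT into the nucleus, and the design asks what CsA changes. The labels do not say whether replicates came from separate animals, so the p-values rest on the spread among libraries alone, and that spread may be technical.

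Libraries held 10523816 to 18468044 estimated counts, of which the 98 genes took 0.849 to 0.888% in CsA_PI, 0.729 to 0.743% in ethanol_PI, 0.957 to 0.99% in CsA_US and 0.845 to 0.991% in ethanol_US libraries. The library labelled CsA_PI 2 went against its label: the activation gene Egr1 stood at 382, 32 and 494 TPM in CsA_PI replicates 1 to 3, against 421 to 466 TPM in ethanol_PI and 25.8 to 41.3 TPM in all unstimulated libraries. It was kept under its label, and results that use it are also given from the other 11 libraries. Summed T cell markers lay between 2707 and 4109 TPM in all libraries. Summed B cell markers were 51.9 to 1006 TPM in CsA_PI, 40.1 to 197 TPM in ethanol_PI, 113 to 867 TPM in CsA_US and 118 to 960.2 TPM in ethanol_US libraries, highest in replicate 2 of every group. Replicate 2 also had the highest sums of the 7 myeloid markers (282 to 557 TPM, against 32.6 to 54 TPM in replicates 1 and 3) and of the 8 erythroid and platelet markers (405 to 699.7 TPM, against 41.4 to 518 TPM) within each group. None of these 3 lists had a marker at 0 in all libraries of a group, and of their genes Itgax alone was called from the 12 libraries, higher with stimulation in vehicle (log2 fold change 1.14 ± 0.41, edgeR adjusted p = 0.0425). The part of these cells in the results below was not tested.

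In TPM, which corrects abundance for transcript length, the F1 catalytic subunit gene Atp5b was the most abundant member, with a mean of 1627 TPM over the 12 libraries. It was followed by Cox4i1 (complex IV) at 840.4 TPM, Atp5a1 (the F1 alpha subunit) at 631 TPM, Uqcrh (the complex III hinge protein) at 522 TPM and Cox7a2l (a supercomplex factor) at 489.6 TPM. The lowest tested members were Atp5s (coupling factor B) at 1.31 TPM, then Sdhaf3 at 1.41, Ndufaf7 at 3.97, Ndufaf6 at 9.68 and Sdhaf4 at 10.5 TPM, of which all but Atp5s are assembly factors. Of the 98 genes, 89 passed the filter on low counts among 14398 genes tested, and 88 of these stood above the filter level in every group. The 9 that did not pass were 8 tissue-restricted isoforms, described below, and another entry of the symbol Atp5o that holds 28 counts in all and overlaps Donson.

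**Figure D1:**
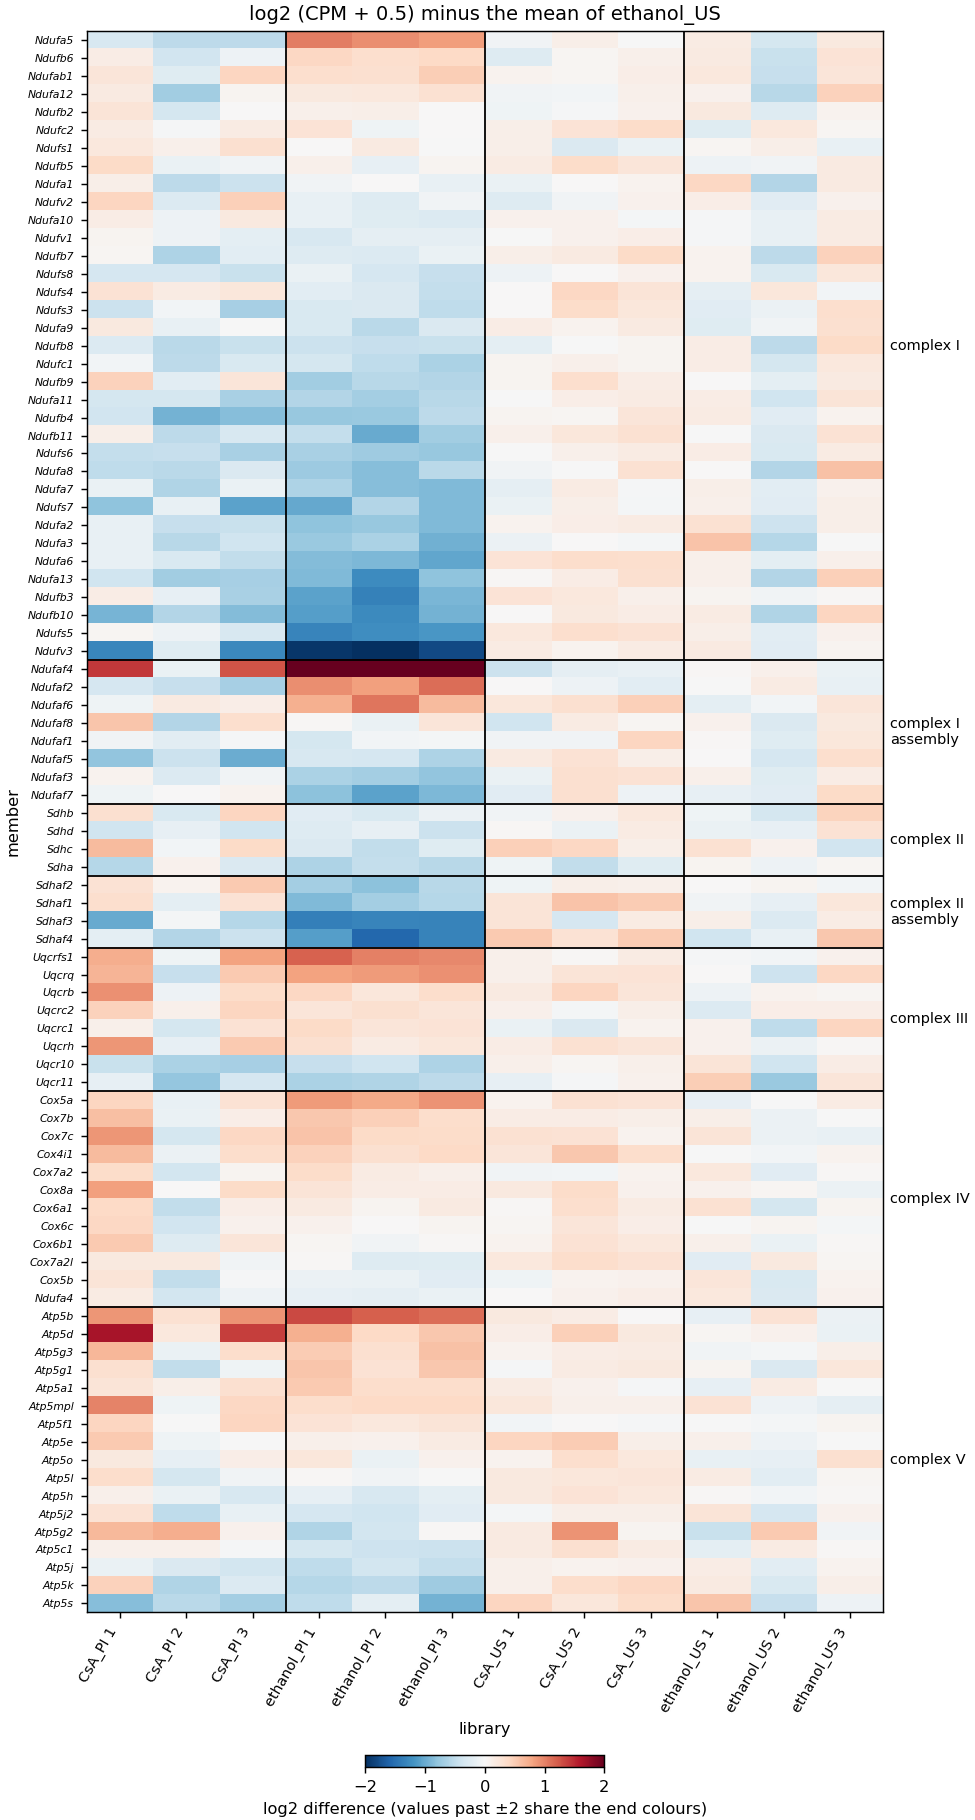
Each row is a tested member (1 is left out), ordered by complex, and each column a library, ordered CsA_PI, ethanol_PI, CsA_US and ethanol_US. Colour gives log2 of CPM, with a small pseudocount, minus the mean of the gene in ethanol_US (red higher, blue lower, with the end colours shared by all values past 2 in either direction). The library labelled CsA_PI 2 differs from its group in genes such as Ndufaf4 (13.2 CPM, against 39.6 and 35.7 CPM in CsA_PI 1 and 3).

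PMA plus ionomycin in vehicle-treated cells lowered complex I transcripts and raised a small set of others. Of 89 members tested, 8 were higher and 27 lower in ethanol_PI than in ethanol_US (39.3% called), beside 39.8% called among all genes (20.1% higher and 19.7% lower). The lower calls were mostly genes of complex I: 17 of its 36 subunits were lower and 1, Ndufa5, was higher. Across complexes II to V, 4 of 41 subunits were higher and 4 lower. The median log2 fold change was -0.52 for complex I and 0.11 for complexes II to V, against -0.02 for all genes. In bulk RNA, fewer cells of a type and less RNA per cell cannot be told apart. Without the library labelled CsA_PI 2, which enters through the shared estimate of spread, 11 members were higher and 33 lower (43.7% of all genes called, 20.8% higher and 22.9% lower).

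**Figure D2:**
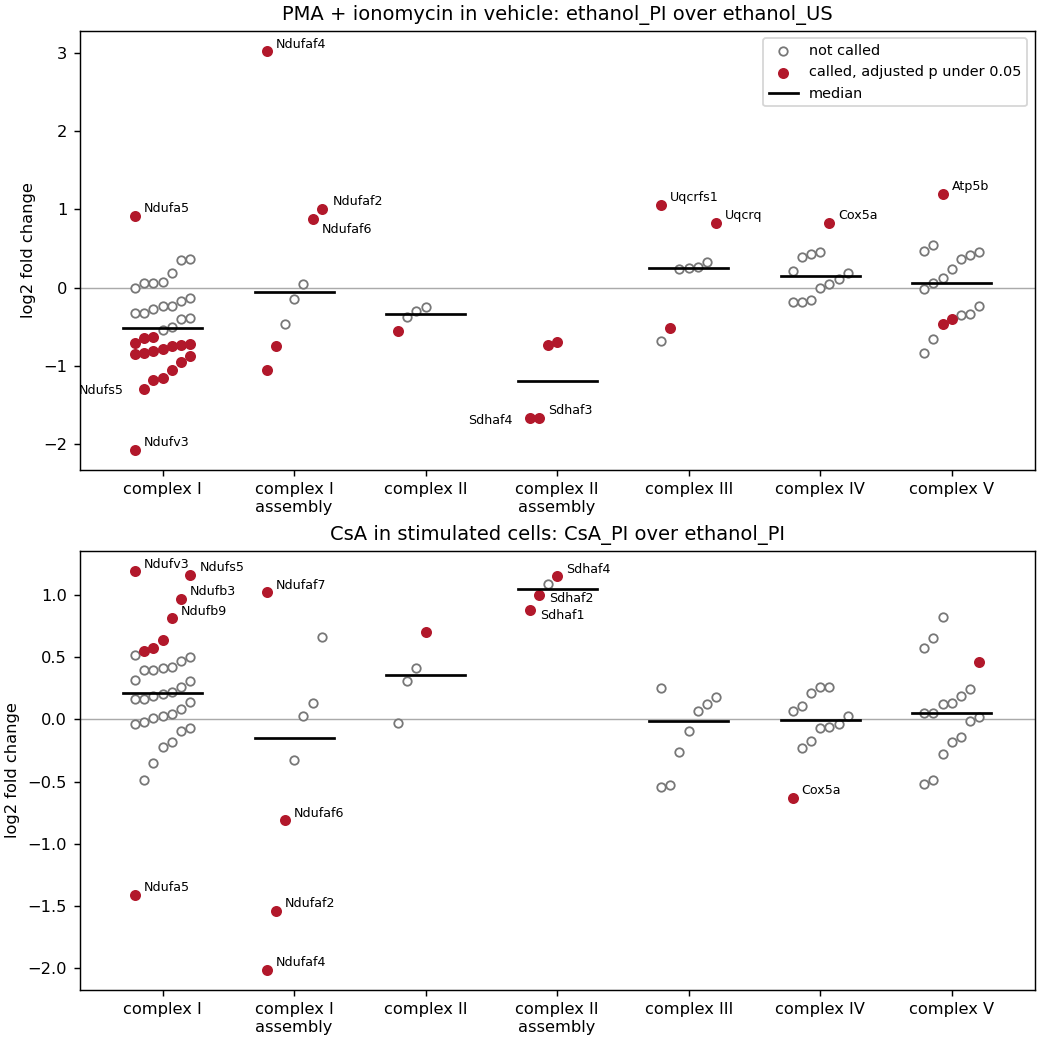
Each point is a tested member, placed by complex, with its log2 fold change on the vertical axis: ethanol_PI over ethanol_US above, CsA_PI over ethanol_PI below, from all 12 libraries. Filled points passed an adjusted p of 0.05, open points did not, and bars are medians. In the upper panel complex I has a median of -0.52 and Ndufaf4 stands alone at 3.02.

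Within complex I, the fall ran through each named subgroup with more than a few members. Of the Ndufa subunits 7 of 13 were lower and 1 higher, of the Ndufb subunits 5 of 10 were lower, of the Ndufs subunits 4 of 8 were lower, and of the Ndufv subunits 1 of 3 was lower. Ndufv3, an accessory subunit next to the NADH-binding site, had 10.1, 7.86 and 11.2 CPM in ethanol_PI libraries, against 45.6, 34.4 and 42 CPM in ethanol_US libraries (CPM is the library-scaled count, with TMM factors as in the test). The groups did not overlap, and the log2 fold change was -2.07 ± 0.29 (SE; edgeR adjusted p = 0.000156), the largest fall of any member. Ndufs5, an accessory subunit on the intermembrane-space side, had 8.94, 9.51 and 10.1 CPM in ethanol_PI libraries, against 25.2, 19.9 and 24.7 CPM in ethanol_US libraries. Its log2 fold change was -1.29 ± 0.19 (edgeR adjusted p = 0.000193).

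Subunits of the membrane arm fell as well. Ndufb10 had 24.9, 21.9 and 27.8 CPM in ethanol_PI libraries, against 60.3, 35.4 and 73.1 CPM in ethanol_US libraries, a log2 fold change of -1.18 ± 0.24 (edgeR adjusted p = 0.00206). Ndufb3 had 6.55, 5.34 and 7.39 CPM in ethanol_PI libraries, against 14.9, 13.6 and 14.6 CPM in ethanol_US libraries, a log2 fold change of -1.16 ± 0.24 (edgeR adjusted p = 0.00246). Neither pair of groups overlapped, although ethanol_US 2 lay well below the other vehicle controls for Ndufb10. The same library was low for Ndufa13, also known as the cell-death regulator GRIM-19, with 30.2, 23.1 and 31.8 CPM in ethanol_PI libraries, against 60.4, 37.3 and 77.8 CPM in ethanol_US libraries. Without ethanol_US 2 the count of members was 7 higher and 30 lower (34.8% of all genes called).

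The core of the enzyme moved unevenly. Ndufs7, which carries the last iron-sulfur cluster before quinone, had 31.9, 43.4 and 35 CPM in ethanol_PI libraries, against 70.2, 55.8 and 70.3 CPM in ethanol_US libraries, with a log2 fold change of -0.83 ± 0.23 (edgeR adjusted p = 0.0124). Ndufs1, the largest core subunit, did not pass the test: it had 90, 102 and 89.6 CPM in ethanol_PI libraries, against 92.1, 97.1 and 81.3 CPM in ethanol_US libraries, and its log2 fold change was 0.06 ± 0.15 (edgeR adjusted p = 0.806). Ndufv1, which binds NADH and FMN, also did not pass, with -0.23 ± 0.14 on the log2 scale (edgeR adjusted p = 0.235). Ndufab1, the mitochondrial acyl carrier protein, stood at 0.35 ± 0.21 (edgeR adjusted p = 0.215). Eef1b2, on the strand opposite Ndufs1, carried 67763 counts over the 12 libraries against 15443 for Ndufs1. Whether counting used strand is not given in the sources used here. Reads from the stretch that such a pair shares may therefore not be told apart. The length of that stretch was not measured, so the part of the counts it concerns is not known.

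Ndufa5, an accessory subunit of the quinone-reducing module, was the only complex I subunit called higher. It had 39.7, 37.3 and 35 CPM in ethanol_PI libraries, against 21.8, 15 and 22.2 CPM in ethanol_US libraries, and the groups did not overlap. Its log2 fold change was 0.92 ± 0.19 (edgeR adjusted p = 0.00238). Of its TPM, 61.9 to 71.7% in ethanol_PI and 62 to 69.6% in ethanol_US libraries was assigned to Ndufa5-204, a transcript annotated without a coding sequence.

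The largest change of any member was in a complex I assembly factor. Ndufaf4, which acts in the early steps of assembly and is needed for complex I to form, had 129.9, 107 and 119 CPM in ethanol_PI libraries, against 14.9, 15.7 and 13.3 CPM in ethanol_US libraries. Its log2 fold change was 3.02 ± 0.33 (edgeR adjusted p = 2.62e-05), and the call held when each of the 12 libraries was left out in turn. Because Ndufaf4 stood apart in this way, the 250 bases before its start (chr4:24897833-24898082, plus strand, RefSeq annotation of GRCm38.p6) are shown, with capitals marking the NRF1 palindrome (GCGCATGC followed by GC) at base -113 and the SP1 motif GGGCGGGG at base -89, counted from the start.
Ndufaf4 promoter: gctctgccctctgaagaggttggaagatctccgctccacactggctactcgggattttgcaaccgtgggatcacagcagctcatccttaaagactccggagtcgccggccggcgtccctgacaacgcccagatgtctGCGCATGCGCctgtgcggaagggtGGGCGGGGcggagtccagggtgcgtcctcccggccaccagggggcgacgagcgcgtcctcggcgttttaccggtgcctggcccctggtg
NRF1 is a transcription factor known for binding promoters of respiratory chain genes, and the palindrome reads alike on both strands. How often members and other genes carry it is given further on.

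The other Ndufaf genes split. Ndufaf2, a late-acting assembly factor related in sequence to Ndufa12, had 11.7, 10.8 and 13.4 CPM in ethanol_PI libraries, against 5.87, 6.66 and 5.3 CPM in ethanol_US libraries (log2 fold change 1.01 ± 0.24, edgeR adjusted p = 0.00474). Ndufaf6, which acts on the module holding the mitochondrially encoded ND1, was also higher, at 0.88 ± 0.27 (edgeR adjusted p = 0.0199). Ndufaf7, a protein methyltransferase, was lower: 3.81, 3.1 and 3.57 CPM in ethanol_PI libraries, against 6.26, 6.02 and 9.43 CPM in ethanol_US libraries (log2 fold change -1.05 ± 0.28, edgeR adjusted p = 0.01). Ndufaf3, the partner of Ndufaf4 in early assembly, was lower at -0.75 on the log2 scale (edgeR adjusted p = 0.0217). It carried 1691 counts over the 12 libraries, and Impdh2 on the opposite strand carried 36380. Ndufaf1, Ndufaf5 and Ndufaf8 did not pass the test, so 3 of the 8 complex I assembly factors were higher and 2 lower.

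All 4 complex II assembly factors were lower with stimulation, with a median log2 fold change of -1.20. Sdhaf4, a chaperone of the flavin-bound Sdha, had 1.67, 1.07 and 1.35 CPM in ethanol_PI libraries, against 3.05, 3.72 and 6.23 CPM in ethanol_US libraries (log2 fold change -1.67 ± 0.36, edgeR adjusted p = 0.00296). Sdhaf3, which acts in Sdhb maturation, had 1.19, 1.26 and 1.23 CPM in ethanol_PI libraries, against 4.23, 3.13 and 4.37 CPM in ethanol_US libraries (log2 fold change -1.66 ± 0.38, edgeR adjusted p = 0.00445). Both were low in level, while Sdhaf1 and Sdhaf2 were more abundant. Sdhaf1, which helps iron-sulfur clusters into Sdhb, was lower by -0.73 ± 0.20 (edgeR adjusted p = 0.0124). Sdhaf2, which is needed to attach flavin to Sdha, had 29.1, 26.4 and 32 CPM in ethanol_PI libraries, against 47.5, 48.7 and 45.1 CPM in ethanol_US libraries (log2 fold change -0.69 ± 0.17, edgeR adjusted p = 0.00542). Cpsf7, on the strand opposite Sdhaf2, carried 12614 counts over the 12 libraries, against 7800 for Sdhaf2. The limit given for Ndufs1 therefore applies to Sdhaf2 in every comparison. It also applies to other members called lower with stimulation in vehicle. Among them are Ndufb11 (9339 counts, against 14761 for Rbm10), Ndufs6 (3937, against 3791 for Mrpl36) and Atp5j (16014, against 8809 for Gabpa).

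Of the 4 subunits of complex II itself, only Sdha passed. This flavoprotein, which oxidises succinate, had 208, 228 and 218 CPM in ethanol_PI libraries, against 331, 298 and 329 CPM in ethanol_US libraries (log2 fold change -0.55 ± 0.18, edgeR adjusted p = 0.0298). The groups did not overlap, but the call was lost without any 1 of ethanol_PI 1, 2 or 3 or of ethanol_US 1 or 3 (highest adjusted p 0.0996). The iron-sulfur subunit Sdhb and the membrane anchors Sdhc and Sdhd stood at -0.25, -0.37 and -0.30 on the log2 scale, and did not pass (edgeR adjusted p = 0.41, 0.229 and 0.168).

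In complex III, 2 of 8 subunits were higher and 1 lower. Uqcrfs1, the Rieske iron-sulfur protein, had 341, 303 and 293 CPM in ethanol_PI libraries, against 148, 144 and 159 CPM in ethanol_US libraries (log2 fold change 1.06 ± 0.21, edgeR adjusted p = 0.00169). The lowest stimulated library was well above the highest unstimulated one. Uqcrq, a small subunit, was higher at 0.83 ± 0.28 (edgeR adjusted p = 0.0301), and Uqcr10, another small subunit, lower at -0.52 ± 0.19 (edgeR adjusted p = 0.0417), and each kept its call in 6 of the 12 fits that left out 1 library. The core protein Uqcrc1 and the hinge protein Uqcrh had log2 fold changes of 0.25 ± 0.24 and 0.24 ± 0.21 and did not pass (edgeR adjusted p = 0.447 and 0.42).

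Complex IV had the smallest share of calls. Cox5a, a subunit that joins the enzyme early in assembly together with Cox4i1, was the only 1 of 12 tested that passed, with 116, 108 and 119 CPM in ethanol_PI libraries, against 57, 63.7 and 71.8 CPM in ethanol_US libraries (log2 fold change 0.83 ± 0.17, edgeR adjusted p = 0.00236). Cox4i1, the most abundant gene of the complex in TPM, had 376, 343 and 361 CPM in ethanol_PI libraries, against 272, 265 and 287 CPM in ethanol_US libraries. Its groups did not overlap, but at 0.39 ± 0.19 on the log2 scale it did not pass (edgeR adjusted p = 0.121). Cox5b, Cox6a1, Cox6c, Cox7a2, Cox7a2l, Cox8a and Ndufa4 lay between -0.18 and 0.21 and none passed. Cox7b also passed in the 11 libraries without the one labelled CsA_PI 2 (0.40, edgeR adjusted p = 0.0478).

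In complex V, Atp5b, the catalytic beta subunit, had 2911, 2655 and 2508 CPM in ethanol_PI libraries, against 1032, 1412 and 1076 CPM in ethanol_US libraries. Its log2 fold change was 1.20 ± 0.21 (edgeR adjusted p = 0.000773), and the call held when each library was left out. Its partner in the catalytic head, Atp5a1, had 944, 841 and 838 CPM in ethanol_PI libraries, against 586, 739 and 657 CPM in ethanol_US libraries, and at 0.41 ± 0.16 did not pass (edgeR adjusted p = 0.0608). Atp5c1, the gamma subunit of the rotor, was lower at -0.40 ± 0.14 (edgeR adjusted p = 0.0383) and Atp5j, coupling factor 6, at -0.46 ± 0.14 (edgeR adjusted p = 0.022). So 1 of 17 tested genes of complex V was higher and 2 were lower. Of the 12 fits that left out 1 library, Atp5c1 kept its call in 7 and Atp5j in 9.

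These directions are relative to TMM scaling, which gave factors of 0.734 to 0.792 to ethanol_PI and 1.12 to 1.21 to the unstimulated libraries. With library totals in place of TMM, the median log2 fold change of all genes was -0.63 and that of the members -0.84, and the calls were 3 higher and 64 lower. Among all genes 1580 were then higher and 5437 lower (48.7% called). Atp5b (0.59), Ndufaf4 (2.41) and Uqcrfs1 (0.44) were the 3 still called higher. Ndufa5, Ndufaf2, Ndufaf6, Cox5a and Uqcrq stayed above 0, at 0.31, 0.40, 0.28, 0.23 and 0.21, but were no longer called. Relative to the median of all genes, the members' median was -0.20 with TMM and -0.21 with library totals.

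**Figure D3:**
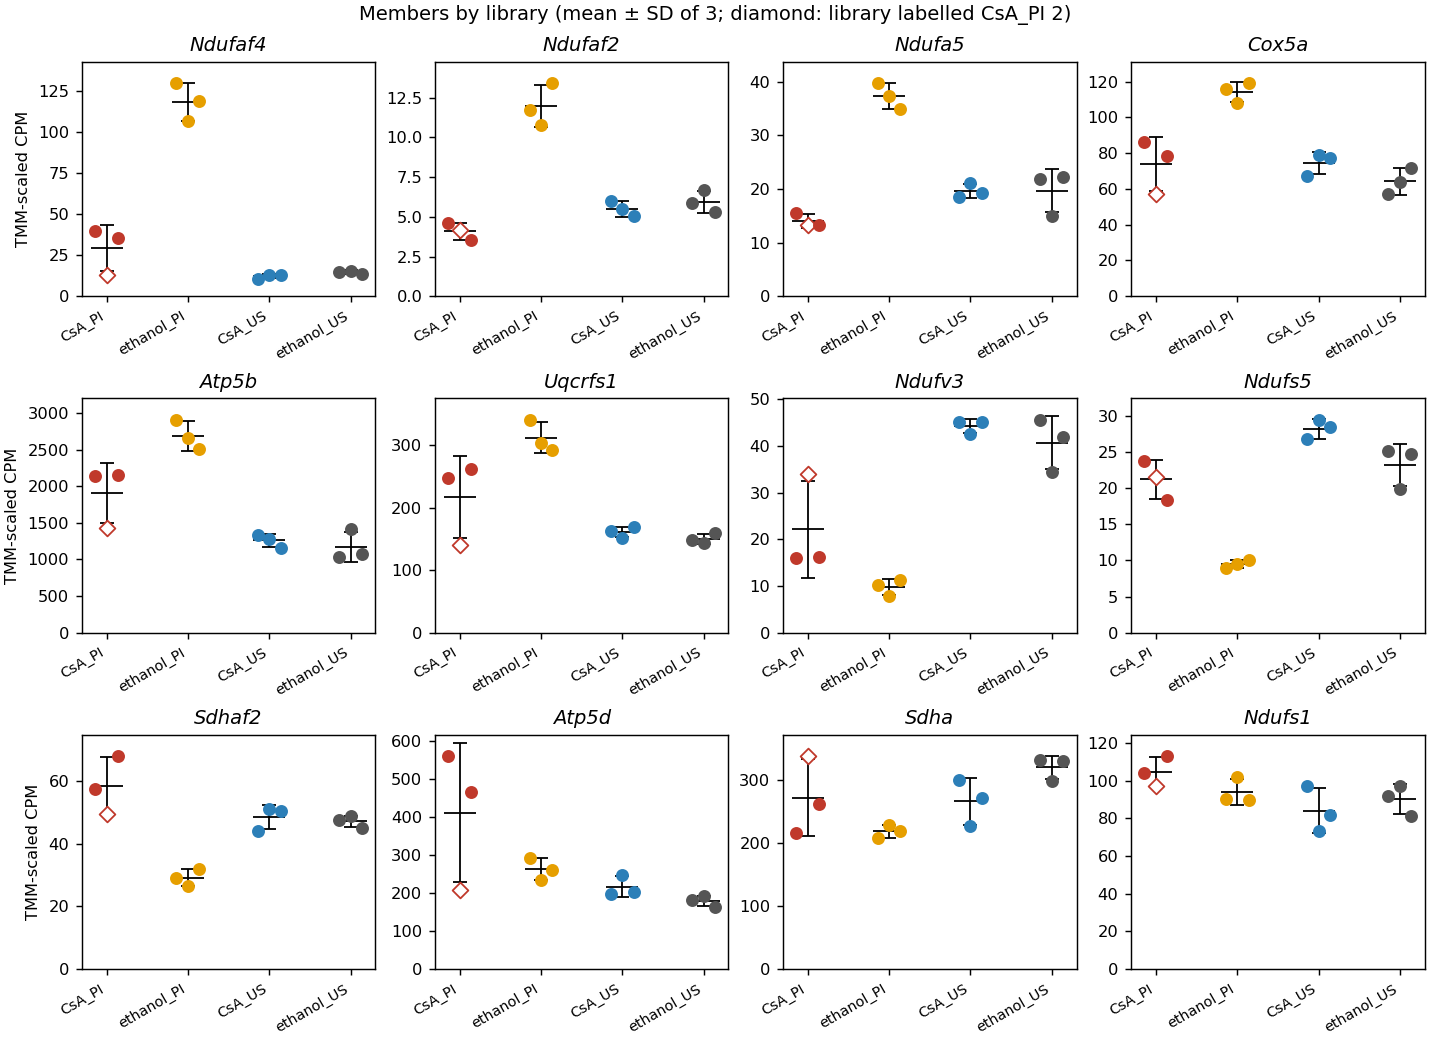
Each panel is 1 member, with TMM-scaled CPM of each library as points (from left CsA_PI, ethanol_PI, CsA_US, ethanol_US) and the group mean and SD as lines. The open diamond is the library labelled CsA_PI 2. Ndufaf4 reaches 107 to 129.9 CPM in ethanol_PI and 13.3 to 15.7 CPM in ethanol_US libraries, and Ndufv3 shows the opposite order.

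Adding CsA before stimulation raised 13 members and lowered 5 relative to vehicle-treated stimulated cells (20.2% called), where 23% of all genes were called (10.3% higher and 12.7% lower). The 5 lower genes were Ndufaf4, Ndufaf2, Ndufa5, Ndufaf6 and Cox5a. Of the 13 higher genes, 7 were complex I subunits (among them Ndufv3, Ndufs5, Ndufb3, Ndufb9, Ndufa6 and Ndufs4), and the others were Ndufaf7, Sdhc, Sdhaf1, Sdhaf2, Sdhaf4 and Atp5c1. The members' median log2 fold change was 0.13, against 0.06 for all genes. Without the library labelled CsA_PI 2, 23 members were higher and 3 lower (22.5% of all genes called, 10.4% higher and 12.1% lower), with a median of 0.24 against 0.05 for all genes. Leaving out ethanol_PI 1, 2 or 3 left 11, 11 and 9 members called, beside 14.8, 15.9 and 15.4% of all genes. This comparison shares the ethanol_PI libraries with the previous one, so opposite signs in both are not independent of each other.

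Among the genes lower with CsA, Ndufaf4 had 39.6, 13.2 and 35.7 CPM in CsA_PI libraries, against 129.9, 107 and 119 CPM in ethanol_PI libraries (log2 fold change -2.01 ± 0.32, edgeR adjusted p = 0.000685). Without the library labelled CsA_PI 2, which had the lowest value, the log2 fold change was -1.62 (edgeR adjusted p = 2.6e-05). Ndufaf2 had 4.6, 4.16 and 3.53 CPM in CsA_PI libraries, against 11.7, 10.8 and 13.4 CPM in ethanol_PI libraries (log2 fold change -1.54 ± 0.24, edgeR adjusted p = 0.000655). Ndufa5 had 15.5, 13.3 and 13.3 CPM in CsA_PI libraries, against 39.7, 37.3 and 35 CPM in ethanol_PI libraries (log2 fold change -1.41 ± 0.20, edgeR adjusted p = 0.000284). For these genes the CsA_PI and ethanol_PI libraries did not overlap, and the calls held when each library was left out.

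Cox5a and Ndufaf6 were less firm. Cox5a had 86.4, 57.3 and 78.2 CPM in CsA_PI libraries, against 116, 108 and 119 CPM in ethanol_PI libraries (log2 fold change -0.63 ± 0.17, edgeR adjusted p = 0.0198). In the other 11 libraries it stood at -0.44 and did not pass (edgeR adjusted p = 0.0533), and the call was also lost without ethanol_PI 1 or 3. Ndufaf6 was at -0.81 ± 0.27 (edgeR adjusted p = 0.0482) and lost its call without any 1 of the 12 libraries. Atp5b and Uqcrfs1, both raised by stimulation, stood at -0.49 ± 0.21 and -0.53 ± 0.21 with CsA and did not pass (edgeR adjusted p = 0.108 and 0.0867). The library labelled CsA_PI 2 was the lowest of its group for both. CsA_PI replicates 1 to 3 had 2137, 1434 and 2160 CPM of Atp5b, against 2508 to 2911 CPM in ethanol_PI libraries. For Uqcrfs1 the values were 248, 141 and 262 CPM, against 293 to 341 CPM.

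The complex II assembly factors were higher with CsA in 3 of 4 cases, with a median log2 fold change of 1.05. Sdhaf2 had 57.5, 49.5 and 67.9 CPM in CsA_PI libraries, against 29.1, 26.4 and 32 CPM in ethanol_PI libraries (log2 fold change 1.00 ± 0.17, edgeR adjusted p = 0.001). Sdhaf1 had 34.2, 23.4 and 33.1 CPM in CsA_PI libraries, against 14.4, 16.7 and 18 CPM in ethanol_PI libraries (log2 fold change 0.88 ± 0.20, edgeR adjusted p = 0.00777). Neither pair of groups overlapped, and both calls held when each library was left out. Sdhaf4 was higher at 1.15 ± 0.36 (edgeR adjusted p = 0.0365), a call lost without ethanol_PI 1, 2 or 3 or CsA_PI 1 or 3, and Sdhaf3 at 1.09 ± 0.39 did not pass (edgeR adjusted p = 0.0594). Of the enzyme itself, the membrane anchor Sdhc was higher at 0.70 ± 0.23 (edgeR adjusted p = 0.0477), and without the library labelled CsA_PI 2 Sdhb passed as well (0.64, edgeR adjusted p = 0.0324). The Sdhc call held in 5 of the 12 fits that left out 1 library, with a highest adjusted p of 0.154.

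Complex I supplied the largest number of higher genes. Ndufs5 had 23.8, 21.5 and 18.4 CPM in CsA_PI libraries, against 8.94, 9.51 and 10.1 CPM in ethanol_PI libraries (log2 fold change 1.16 ± 0.19, edgeR adjusted p = 0.000772). Ndufv3 had 16, 34 and 16.3 CPM in CsA_PI libraries, against 10.1, 7.86 and 11.2 CPM in ethanol_PI libraries (log2 fold change 1.19 ± 0.28, edgeR adjusted p = 0.00948). The high Ndufv3 value was that of the library labelled CsA_PI 2, and without it the log2 fold change was 0.77 (edgeR adjusted p = 0.0117). Ndufb9, an accessory subunit of the membrane arm, had 64.4, 40.5 and 55.8 CPM in CsA_PI libraries, against 28.8, 31.6 and 31.2 CPM in ethanol_PI libraries (log2 fold change 0.81 ± 0.19, edgeR adjusted p = 0.00908). Ndufb10, by contrast, had 27.9, 35.9 and 29.3 CPM in CsA_PI libraries, against 24.9, 21.9 and 27.8 CPM in ethanol_PI libraries, and at 0.32 ± 0.24 did not pass (edgeR adjusted p = 0.381).

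The library labelled CsA_PI 2 was lower than CsA_PI 1 and 3 in several genes of complexes III to V, some of which passed in the other 11 libraries. Atp5d, the delta subunit of the ATP synthase rotor, chosen after its values were seen, had 560.5, 207 and 466 CPM in CsA_PI libraries, against 293, 235 and 260.3 CPM in ethanol_PI libraries. With 12 libraries its log2 fold change was 0.65 ± 0.28 (edgeR adjusted p = 0.124), and with 11 it was 1.01 (edgeR adjusted p = 0.000487). Cbarp, on the opposite strand, carried 5572 counts over the 12 libraries, against 42074 for Atp5d. Uqcrh, with 219, 106 and 171 CPM in CsA_PI libraries, against 148, 132 and 139 CPM in ethanol_PI libraries, stood at 0.25 ± 0.21 (edgeR adjusted p = 0.465) and passed in the 11 (0.52, edgeR adjusted p = 0.0197). Cox8a did not pass in the 12 either and passed in the 11 (0.48, edgeR adjusted p = 0.0455). With library totals in place of TMM both were called in the 12, Uqcrh at 0.54 (edgeR adjusted p = 0.0328) and Cox8a at 0.56 (edgeR adjusted p = 0.0184). Over 324 tested genes of up to 800 bases (mean transcript length weighted by counts) with a mean of at least 20 CPM, 36 of them members, the median deviation from a gene's mean of log2 CPM was 0.43, -0.25 and -0.02 in CsA_PI replicates 1 to 3 and 0.16, -0.01 and -0.05 in ethanol_PI libraries. Over 5990 longer genes it was -0.01, -0.08 and 0.06 in CsA_PI libraries and 0.13, 0.11 and 0.14 in ethanol_PI libraries. The part of transcript length in these member results was not tested.

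With library totals in place of TMM, the median log2 fold change of all genes for CsA in stimulated cells was 0.40 and that of the members 0.43, and 36 members were called higher and 3 lower. Among all genes 2870 were higher and 1193 lower (28.2% called). Ndufaf4, Ndufaf2 and Ndufa5 were the 3 still called lower, at -1.73, -1.20 and -1.07, while Cox5a and Ndufaf6 stood at -0.32 and -0.46 and were no longer called.

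Whether CsA changed the response to stimulation was tested as an interaction, the log2 effect of stimulation with CsA less the same effect with vehicle. Of 89 members, 2 were positive and 4 negative, beside 9.72% of all genes (3.54% positive and 6.19% negative). The negative ones were Ndufaf4 at -1.75 ± 0.44 (edgeR adjusted p = 0.0261), Ndufaf2 at -1.43 ± 0.33 (edgeR adjusted p = 0.0182), Ndufa5 at -1.40 ± 0.27 (edgeR adjusted p = 0.00712) and Cox5a at -0.85 ± 0.24 (edgeR adjusted p = 0.0473). The positive ones were Sdhaf2 at 0.95 ± 0.23 (edgeR adjusted p = 0.0225) and Ndufs5 at 0.88 ± 0.26 (edgeR adjusted p = 0.049). Ndufa5 alone kept its call when each library was left out in turn. Sdhaf2 kept it in 9 of the 12 such fits, Ndufaf2 in 8, Ndufaf4 in 6, Ndufs5 in 3 and Cox5a in 2. Without ethanol_US 1 or 3, CsA_US 3 or ethanol_PI 1 or 3, 2 members were called (5.27 to 7.27% of all genes). Without CsA_US 2 or ethanol_PI 2, 3 were (6.67 and 6.19% of all genes). With library totals the split was 6 positive and 2 negative (10.3% of all genes called), with a median of 0.43 over all genes and 0.36 over the members.

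The 11 libraries gave 5 positive and 4 negative members in the interaction (12.4% of all genes called, 5.08% positive and 7.31% negative). All 6 genes named above were among them, Ndufaf4 at -1.36 (edgeR adjusted p = 0.00164) and Sdhaf2 at 1.09 (edgeR adjusted p = 0.00375). The 3 others were Ndufb9 (0.83, edgeR adjusted p = 0.0251), Ndufv2 (0.72, edgeR adjusted p = 0.036) and Atp5d (0.73, edgeR adjusted p = 0.0405). With the replicate numbers of the labels as a block, the pairing left 1 positive and 4 negative members in the 12 libraries. The block called 11.1% of all genes there, and Ndufs5 lost its call (edgeR adjusted p = 0.0645). In the 11 libraries the block left 4 positive and 3 negative members, beside 15.1% of all genes called. Cox5a (edgeR adjusted p = 0.0503) and Ndufs5 (edgeR adjusted p = 0.0524) lost their calls there.

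Stimulation under CsA, CsA_PI over CsA_US, gave 1 higher and 3 lower members from 12 libraries, beside 5.28% of all genes (3.9% higher and 1.38% lower). Ndufaf4 had 39.6, 13.2 and 35.7 CPM in CsA_PI libraries, against 10.7, 12.9 and 13.1 CPM in CsA_US libraries (log2 fold change 1.27 ± 0.31, edgeR adjusted p = 0.0446). The library labelled CsA_PI 2 lay within the unstimulated range and the other CsA_PI libraries far above it. The lower genes were Ndufb10 (-0.92 ± 0.24, edgeR adjusted p = 0.047), Ndufb4 (-0.84 ± 0.22, edgeR adjusted p = 0.0498) and Ndufa6 (-0.64 ± 0.16, edgeR adjusted p = 0.0458). No member was called without CsA_PI 1 or 3, ethanol_US 1 or 3, or any 1 of the CsA_US or ethanol_PI libraries, nor with the replicate number as a block. Among all genes 0 to 1.82% were called in those fits without 1 library, and 3.06% with the block.

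From the 11 libraries, 7 members were higher and 11 lower with stimulation under CsA (28.7% of all genes called, 14.1% higher and 14.6% lower), 8 of the lower being complex I subunits. Ndufaf4 was higher at 1.60 (edgeR adjusted p = 1.74e-05), Atp5d at 1.23 (edgeR adjusted p = 9.01e-05), Atp5b at 0.74 (edgeR adjusted p = 0.00619) and Uqcrfs1 at 0.64 (edgeR adjusted p = 0.0031). Ndufv3 was lower at -1.48 (edgeR adjusted p = 0.000127) and the assembly factor Ndufaf5, which hydroxylates Ndufs7, at -1.17 (edgeR adjusted p = 0.00625). With library totals the all-gene median of the 11 libraries was -0.36 and the split 2 higher and 32 lower (32.6% of all genes called).

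In unstimulated cells, edgeR called no member for CsA_US over ethanol_US, 1 passed an unadjusted p of 0.05, and DESeq2 called 0. Among all genes edgeR called 1 (0.00695%), and 465 had an unadjusted p under 0.05. In the 11 libraries edgeR called no member and 2 had an unadjusted p under 0.05, beside 0.0465% of all genes called (0.00664% higher and 0.0398% lower). The members' median log2 fold change was 0.10 in the 12, against -0.01 for all genes. Without ethanol_US 2, the vehicle library with low complex I values, it was -0.00. The summed level of complex I was 4751, 4727 and 5245 TPM in CsA_US libraries and 5504, 3788 and 5842 TPM in ethanol_US libraries, which overlapped.

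Summed over subunits, the size of these differences depended on the scale. In TPM, complex I reached 3299, 3880 and 3341 in CsA_PI libraries, 2478, 2712 and 2645 in ethanol_PI libraries, and 5504, 3788 and 5842 in ethanol_US libraries. Every ethanol_PI sum lay below every unstimulated one. The ratio of the group means for complex I was 0.52 for ethanol_PI over ethanol_US in TPM, 0.75 in TMM-scaled CPM and 0.49 in CPM by library totals, without the TMM factors. Complex V had 5827, 5483 and 5909 TPM in CsA_PI libraries, 5081, 5134 and 5215 TPM in ethanol_PI libraries, and 5375, 5488 and 5796 TPM in ethanol_US libraries. Its ratio of ethanol_PI over ethanol_US was 0.93 in TPM, 1.59 in TMM-scaled CPM and 1.04 in CPM by library totals, so its direction depended on the scale. Atp5b alone made up 2691 of the mean summed 4916 TMM-scaled CPM of complex V in ethanol_PI, and 1173 of 3088 in ethanol_US. The ratio was 0.82, 1.30 and 0.85 on the same 3 scales for complex III, and 0.75, 1.11 and 0.73 for complex IV. For complexes I to IV the ratio without TMM factors differed from that in TPM by less than the spread between replicates.

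Within the members' own TPM, complex I took 20.7 to 25% in CsA_PI, 19.1 to 20.1% in ethanol_PI, 26 to 27.2% in CsA_US and 24.3 to 29.9% in ethanol_US libraries. Complex V took 35.3 to 37% in CsA_PI, 38.1 to 39.3% in ethanol_PI, 31.7 to 33.1% in CsA_US and 28.8 to 35.2% in ethanol_US libraries. Complex I assembly factors took 0.762 to 0.874% in CsA_PI and 1.25 to 1.44% in ethanol_PI libraries, against 0.73 to 0.904% in the unstimulated groups. These shares do not depend on library scaling, and for all 3 the ethanol_PI range overlapped none of the unstimulated ranges. Single genes weigh heavily in such sums. In mean TMM-scaled CPM, Ndufaf4 made up 119 of the 177 of complex I assembly factors in ethanol_PI, and 14.7 of 75.7 in ethanol_US.

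**Figure D4:**
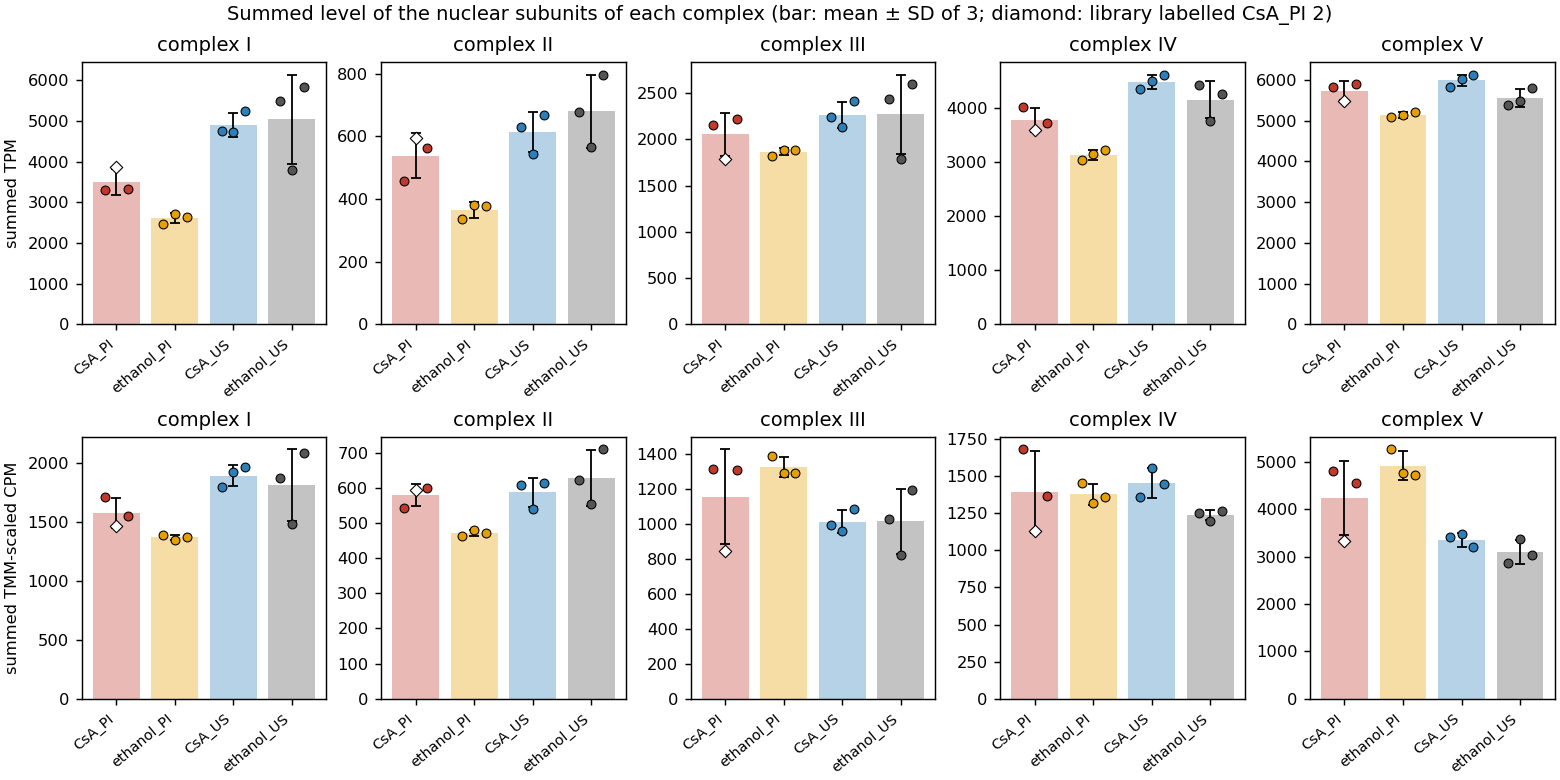
Each panel is a complex, with the summed level of its subunits on the vertical axis (TPM in the upper row, TMM-scaled CPM in the lower row), a point for each library (from left CsA_PI, ethanol_PI, CsA_US, ethanol_US), and the mean and SD of each group; the open diamond is the library labelled CsA_PI 2. In the upper row the complex I sum is lowest in ethanol_PI, at 2612 ± 121 TPM, against 5045 ± 1101 TPM in ethanol_US (SD, n = 3 each).

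Tissue-restricted isoforms had few or no counts. Cox7b2, Cox8b and Cox8c had no count in any library, which allows up to 0.162 to 0.285 CPM per library. That limit is 3 counts over the library total, without TMM factors, and covers counting error only. Ndufa4l2 had 1 count in all, Cox4i2 and Cox7a1 14 each, Cox6a2, the muscle isoform of Cox6a, 34, and Cox6b2, the testis isoform of Cox6b, 86. The 12 libraries together held 54598 counts of the common isoform Cox4i1.

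The c ring of complex V is built from 1 mature protein that 3 genes encode, and the shares given here are of their transcripts. Atp5g1 made up 39.9 ± 2.05% of their TPM in CsA_PI, 49.1 ± 1.26% in ethanol_PI, 45.6 ± 1.64% in CsA_US and 46.6 ± 5.09% in ethanol_US (SD, n = 3 each). The ethanol_PI range of 48.3 to 50.6% overlapped the ethanol_US range of 40.7 to 49.7%. Atp5g2 made up 10.3, 17.5 and 9.03% in CsA_PI libraries, 4.43, 6.05 and 6.55% in ethanol_PI libraries, 10.2, 14.8 and 8.63% in CsA_US libraries and 7.15, 14.2 and 7.95% in ethanol_US libraries. All ethanol_PI shares of Atp5g2 were below those of the other groups, and replicate 2 was the highest in CsA_PI, CsA_US and ethanol_US. At the gene level Atp5g2 did not pass in either comparison (-0.35 ± 0.31 for stimulation in vehicle, edgeR adjusted p = 0.409; 0.82 ± 0.32 for CsA in stimulated cells, edgeR adjusted p = 0.0814). The 3 coding sequences resemble one another, so reads may be split between them by the quantification.

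Transcript shares, chosen after they were seen, moved for Ndufv3, which has a long form, Ndufv3-201 (1537 bases), and a short form, Ndufv3-202 (485 bases). Ndufv3-201 held 15.1 to 27.1% of the gene's TPM in CsA_PI, 6.12 to 14.4% in ethanol_PI, 26.5 to 35.5% in CsA_US and 27.4 to 27.5% in ethanol_US libraries. The ethanol_PI range overlapped none of the others. Over all members, transcripts annotated without a coding sequence held 16 to 17% of TPM in CsA_PI, 18.5 to 18.8% in ethanol_PI, 15.1 to 17.8% in CsA_US and 14.8 to 16.8% in ethanol_US libraries.

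The mitochondrially encoded partners of these subunits were not called. None of 13 passed in either comparison, with median log2 fold changes of 0.21 for stimulation in vehicle and 0.11 for CsA in stimulated cells (0 had an unadjusted p under 0.05 in edgeR in either). Their summed level was 32827 to 33181 TPM in CsA_PI, 27410 to 27798 TPM in ethanol_PI, 29557 to 33677 TPM in CsA_US and 31091 to 43366 TPM in ethanol_US libraries. Complex I assembly factors outside the symbol rule gave 1 higher and 2 lower of 10 with stimulation in vehicle, and those of complexes III to V gave 5 higher and 6 lower of 30. Among all genes 39.8% were called with stimulation in vehicle and 23% with CsA in stimulated cells. Sco2, a copper chaperone of complex IV, was higher with stimulation at 3.75 (edgeR adjusted p = 2.74e-05) and lower with CsA at -2.54 (edgeR adjusted p = 0.000593). Tmem126b, part of the complex I assembly machinery, was lower with stimulation at -2.89 (edgeR adjusted p = 0.000884) and higher with CsA at 1.91 (edgeR adjusted p = 0.0164).

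Carriers and protein import had the largest share of calls among the other mitochondrial lists. Of 22 genes, 15 were higher and none lower with stimulation in vehicle (median 1.16), 13 were lower and none higher with CsA in stimulated cells (median -1.07), and 8 were negative in the interaction. Among all genes 39.8, 23 and 9.72% were called in these comparisons. In the 11 libraries the counts were 16 higher and 1 lower, 12 lower and none higher, and 9 negative (43.7, 22.5 and 12.4% of all genes called). The import genes Timm8a1, Timm9 and Timm10 rose by 2.84, 2.56 and 2.90 on the log2 scale with stimulation in vehicle. With CsA in stimulated cells Timm8a1 stood at -2.23, Timm9 at -1.88 and Timm10 at -1.91, and all passed. Summed import and carrier TPM was 4175, 3498 and 4806 in CsA_PI libraries, 6178, 6314 and 6412 in ethanol_PI libraries and 3364 to 4029 in ethanol_US libraries. The electron carrier gene Cycs, cytochrome c, was higher with stimulation in vehicle at 1.68 (edgeR adjusted p = 0.00125) and stood at -0.91 with CsA (edgeR adjusted p = 0.051). The tricarboxylic acid cycle gave 3 higher and 2 lower of 17 with stimulation in vehicle (39.8% of all genes called), and 1 lower with CsA (23%). Of 16 regulators of mitochondrial transcription and biogenesis, 3 were higher and 2 lower with stimulation in vehicle and 3 were lower with CsA, among them Pprc1, a PGC-1-related coactivator, at 2.85 with stimulation (edgeR adjusted p = 1.94e-05) and -1.92 with CsA (edgeR adjusted p = 0.000456).

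**Figure D5:**
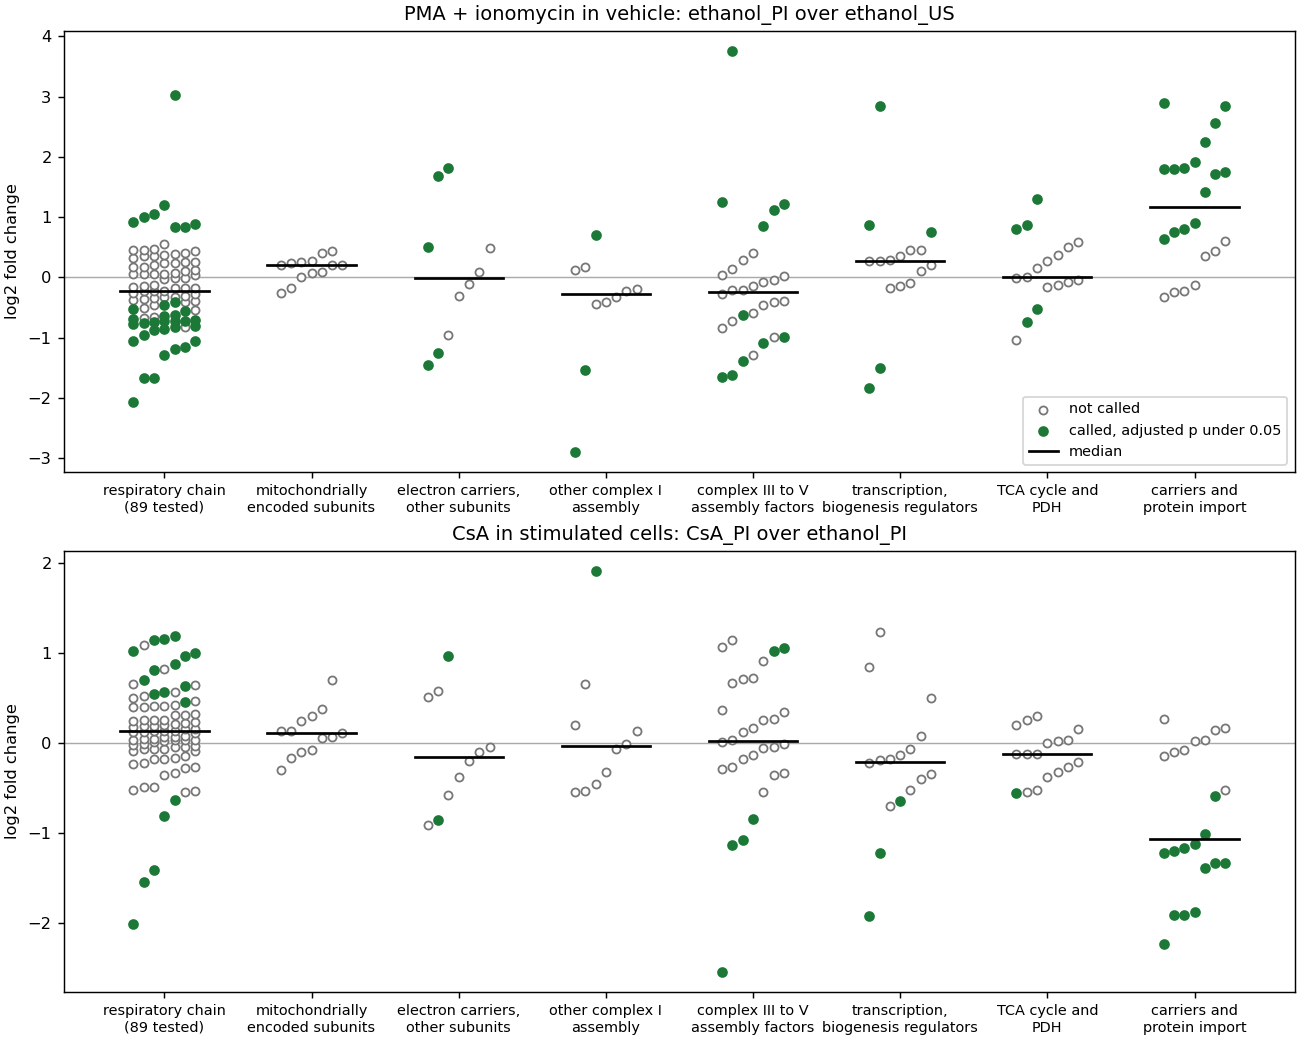
Each point is a tested gene, placed by list, with its log2 fold change for stimulation in vehicle (ethanol_PI over ethanol_US, above) and for CsA in stimulated cells (CsA_PI over ethanol_PI, below). Filled points passed an adjusted p of 0.05, open points did not, and bars are medians. Carriers and import genes have medians of 1.16 and -1.07, and the respiratory chain members -0.23 and 0.13.

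Promoters were read from RefSeq for 80 of the 97 member symbols (GRCm38.p6, 250 bases before to 50 after the start), and 6 motifs were searched on both strands. For 69 of the 80, bases 6 to 35 after the start lay in an annotated transcript of the gene. Member shares are over all 80, which include untested members such as Cox6b2, unlike the shares of tested genes set beside them. The NRF1 palindrome was in 7 member promoters (8.75%), against 1.07% of 27025 promoters and 2.35% of the 10025 promoters of tested genes. These 7 are shown as windows of 30 bases, the palindrome in capitals.
Ndufaf4, chr4:24897960-24897989, plus strand: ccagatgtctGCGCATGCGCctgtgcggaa
Ndufa11, chr17:56717692-56717721, plus strand: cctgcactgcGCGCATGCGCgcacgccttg
Ndufaf5, chr2:140170652-140170681, plus strand: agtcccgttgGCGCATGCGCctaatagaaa
Uqcrc1, chr9:108936668-108936697, plus strand: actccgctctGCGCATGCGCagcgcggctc
Cox6a1, chr5:115349101-115349130, minus strand: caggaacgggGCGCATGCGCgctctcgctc
Atp5g2, chr15:102671070-102671099, minus strand: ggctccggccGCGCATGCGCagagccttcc
Atp5k, chr5:108434430-108434459, minus strand: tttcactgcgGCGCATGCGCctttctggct
Of these 7 genes, Ndufaf4 was higher and Ndufa11 lower with stimulation in vehicle, and the other 5 did not pass in that comparison, so the motif was found in genes that moved in either direction or did not pass.

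The shorter NRF1 core GCGCATGC, which the palindrome contains, was in 15% of member promoters against 5.88% of those of tested genes, and the YY1 motif AAGATGGC in 13.8% against 5.3%. The ETS and GABP motif CCGGAAG was in 26.2% against 20.5%, the SP1 motif GGGCGGGG in 21.2% against 36.1%, and the NFAT motif GGAAAA, whose factors calcineurin activates, in 21.2% against 24.3%. Among the 6 members with a promoter that were higher with stimulation in vehicle, 3 carried GGAAAA (Ndufa5, Ndufaf2 and Uqcrfs1), and among the 24 that were lower, 2 did. For the higher and the lower genes these counts were 2 and 6 for the SP1 motif, 1 and 3 for the NRF1 core, and 0 and 4 for each of the ETS and YY1 motifs. With 6 higher genes no order of motifs can be read from these counts. A match describes these letters in this window, and no binding was measured.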

How the data were processed

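The submitters' processing notes name cutadapt, kallisto and mm10; their versions and settings are not given in the sources used here. The deposited tables hold, per the file headers, an estimated count and a TPM for each transcript, with its length and effective length. Of 109617 transcripts, 108214 were matched by identifier to GENCODE annotation of mm10, and the other 1403 (0.494 to 0.628% of counts) were left out. Gene values are sums of estimated counts, rounded to whole numbers, and of TPM.

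Tests used edgeR 4.0.16 in R 4.3.3 with TMM scaling, filterByExpr with a minimum count of 10 and a minimum total of 15, and robust quasi-likelihood fits of all 4 groups at once. P-values were adjusted by Benjamini-Hochberg over all genes tested, and a gene was called at an adjusted p under 0.05. The SE is the absolute log2 fold change over the square root of its F statistic. The code was tested on simulated data.

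The members and lists were chosen with earlier results of these data known. By rule, named genes were 24 abundant or central subunits, the 8 isoforms, and the 8 largest called rises and falls of each comparison. All calls where there were 10 or fewer, the 5 highest and 5 lowest by TPM, and up to 4 called genes of each other list were also named. Some genes were named outside these rules without being marked so, among them Ndufs7, Ndufaf3, Ndufaf5, Uqcr10, Cox7b, Atp5c1 and Atp5j. Atp5d and the Ndufv3 transcripts are marked as chosen after being seen.

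Equally numbered libraries deviated together from their group means across genes: the correlations were 0.143 to 0.319 between ethanol_PI and ethanol_US, 0.107 to 0.208 between CsA_PI and ethanol_PI, 0.196 to 0.325 between CsA_US and ethanol_US, and 0.0333 to 0.123 between CsA_PI and CsA_US. The labels give the numbers without saying what equal numbers have in common, and they entered as a block only in an alternative. Other alternatives were RLE scaling, library totals, other filters, DESeq2 1.42.0, coding transcripts only, added pseudogene copies, only the groups compared, and leaving out each library. Values of 1 member are not reported here, though it stays in all counts and sums. Promoter sequences come from RefSeq (GRCm38.p6).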

Additional observations from a re-analysis of the deposited data

Results flagged for a closer look

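For 6 members, a test of the difference itself found that the stimulation effect under CsA differed from that in vehicle (edgeR interaction, adjusted over all genes, with 9.72% of all genes called). The difference in log2 fold change was -1.75 for Ndufaf4, -1.43 for Ndufaf2, -1.40 for Ndufa5 and -0.85 for Cox5a, and 0.88 for Ndufs5 and 0.95 for Sdhaf2. Ndufaf4 rose by 1.27 under CsA and by 3.02 in vehicle on the log2 scale. Ndufaf2 and Ndufa5 stood at -0.42 and -0.48 under CsA, without a call, and rose by 1.01 and 0.92 in vehicle. Sdhaf2 stood at 0.26 under CsA, without a call, against -0.69 in vehicle. When each of the 12 libraries was left out in turn, the adjusted p of the interaction reached at most 0.0264 for Ndufa5 and 0.0703 for Ndufaf4.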

How the results depend on the processing

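Members called for stimulation in vehicle numbered 35, beside 39.8% of all genes. With 1 library left out they ranged from 24 to 44 (29.9 to 43.7% of all genes). With library totals they were 67 (48.7%). DESeq2, RLE scaling and the replicate block each kept all 35. For CsA in stimulated cells the count of 18 (23% of all genes) ranged from 9 to 26 with 1 library left out (14.8 to 22.5%). It was 39 with library totals (28.2%), and the replicate block kept 17 (24.5% of all genes called). For stimulation under CsA the count of 4 (5.28% of all genes) ranged from 0 to 18 with 1 library left out (0 to 28.7%). It was 0 with library totals (0.0347% of all genes), the replicate block (3.06%), coding transcripts only (6.04%) or only the groups compared (0%). It was 8 with a minimum count of 50 (9.5%) and 12 with DESeq2 (15.3%). The 6 interactions (9.72% of all genes) ranged from 2 to 9 with 1 library left out (5.27 to 12.4%). They were 3 with no filter (4.37%), 3 with coding transcripts only (10.3%) and 5 under the replicate block (11.1%). Coding transcripts alone lost the calls of Ndufaf4 (-1.83), Ndufa5 (-1.27) and Cox5a (-0.78). No call for CsA in unstimulated cells appeared under any alternative. The cause was not tested.

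3 alternatives were chosen after seeing the data. Without the library labelled CsA_PI 2, library totals gave 70, 34, 34 and 10 calls for stimulation in vehicle, CsA in stimulated cells, stimulation under CsA and the interaction, beside 52.1, 24.3, 32.6 and 13% of all genes. In the same 11 libraries the pairing by replicate block gave 20 calls for stimulation under CsA (32.1% of all genes), 24 for CsA in stimulated cells (25.2%), where it kept 15 of the 18 calls from 12 libraries, and 7 interactions (15.1%), where it kept 4 of the 6.

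With library totals, the sign of the log2 stimulation effect in vehicle turned for Atp5d (-0.06), Atp5g3 (-0.14) and Cox7b (-0.15), with and without the library labelled CsA_PI 2. Uqcrh turned to -0.01 without CsA_PI 1, for CsA in stimulated cells and for stimulation under CsA, and to -0.04 with library totals for the second of these, against 0.52 and 0.47 without the library labelled CsA_PI 2. Over 2267 alternative values of single members, 1885 kept direction and side of the threshold, 229 lost a call, 144 gained one and 9 turned sign.

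In summed TMM-scaled CPM in place of TPM, the ratios of ethanol_PI over ethanol_US were 0.75 (complex I), 0.75 (II), 1.30 (III), 1.11 (IV) and 1.59 (V), and those of CsA_PI over ethanol_PI were 1.15, 1.23, 0.87, 1.01 and 0.86 in the same order. Without the library labelled CsA_PI 2, the mean CsA_PI sums were 1634, 572, 1310, 1526 and 4683 CPM in that order. The ethanol_PI means were 1371, 472, 1322, 1378 and 4916 CPM. In CPM by library totals, the third alternative chosen afterwards, complex V stood at 1.04 for ethanol_PI over ethanol_US. By estimated counts, Cox7a2l held 82% of its family in ethanol_PI and 85.2% in ethanol_US, against 74.1% and 78.4% by TPM. Depth limits the genes at a few CPM, such as Sdhaf3 and Sdhaf4.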
